A study of Mus musculus with 686 samples.

Results

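The miR-297, miR-466, miR-467 and miR-669 families are small RNAs of mice and rats, most of whose hairpins lie in one intron of Sfmbt2, the gene of a Polycomb group protein. The members described here were the entries of the deposited miRNA count table named mmu-miR-297, mmu-miR-466, mmu-miR-467 or mmu-miR-669 followed by a letter or a hyphen, which gave 80 of 1964 miRNAs. They fell into 6 miR-297, 31 miR-466, 13 miR-467 and 30 miR-669 entries, of which 35 were 3p arms, 33 were 5p arms and 12 carried no arm in their name. Members were compared across 13 tissues and between the study arms.

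Small RNA libraries were made from tissues of female BALB/cAnNTac mice aged 3 or 8 months, all fed NASA food bars. FL mice were flown to the International Space Station, HGC (habitat ground control) mice were kept on the ground in flight-matched housing, and VGC (vivarium ground control) mice were kept in standard cages. The LAR series held FL mice that came back alive after 39.5 days aboard and were dissected 2 to 4 days after splashdown, with snap-frozen tissues, and its matching controls. The TERM series held FL mice killed aboard the station 22 to 24 days after launch, and its matching controls on the ground. TERM spleens were taken out fresh and kept in RNA Later, while the other TERM tissues were dissected from carcasses that had been frozen whole and thawed. The FL carcasses were frozen aboard while floating in air and those of the controls in freezers on the ground. In TERM tissues other than spleen the way of freezing and flight thus cannot be told apart. FL mice were killed aboard and controls on the ground, so in the TERM spleen the place of dissection and flight cannot be told apart either. LAR and TERM therefore differed in time, return to Earth, anaesthesia and preservation, which cannot be told apart, and within TERM the spleen was preserved unlike the other tissues. The data comprised 686 libraries (348 LAR, 338 TERM) from 83 mice (40 LAR, 43 TERM), with 114 FL, 113 HGC and 121 VGC libraries in LAR and 115, 114 and 109 in TERM.

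A miRNA is cut from a hairpin into a 5p and a 3p arm, and the arm loaded into an Argonaute protein finds its target messenger RNAs mainly through its seed, bases 2 to 8. Sfmbt2 is imprinted and expressed from the paternal copy in early embryos and placenta, where this miRNA cluster is best known. Many of its hairpins are near copies of one another, so a read can match several members.

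In the GENCODE annotation of the GRCm38.p6 mouse assembly, 81 hairpins of these families were found. Of these, 71 lay on the strand of Sfmbt2 (chr2:10370510-10595253, plus strand), and all 71 fell in intron 11 of the gene model used, within 51617 bases (chr2:10466663-10518279). The other 10 hairpins lay elsewhere. Mir466i (chr13:17747473-17747593) was in an intron of Cdk13, the gene of a transcription kinase, on the opposite strand. Introns of Gm37240, Tnik, Fxr2, Grk4 and Slc30a7 held Mir466k, Mir466q, Mir467f, Mir467g and Mir669n, and Mir297-1, Mir466f-4, Mir466j and Mir467h overlapped no annotated gene. In all, 9 members came only from hairpins outside Sfmbt2.

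Mature sequences of 8 of those 9 members were taken from RefSeq (GRCm38.p6). They are shown because they carry the family names without the shared intron, and because the member with the most unlike tissue pattern was among these 9. Capitals mark the seed.
mmu-miR-466i-3p: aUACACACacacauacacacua
mmu-miR-466j: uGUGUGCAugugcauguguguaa
mmu-miR-466k: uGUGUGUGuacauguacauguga
mmu-miR-466q: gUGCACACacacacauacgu
mmu-miR-467f: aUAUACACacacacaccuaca
mmu-miR-467g: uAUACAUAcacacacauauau
mmu-miR-467h: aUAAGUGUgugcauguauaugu
mmu-miR-669n: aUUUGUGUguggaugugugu

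The 8 sequences were 20 to 23 bases long and no seed occurred in more than 1 of them. Each held an alternating UG or CA run, 7 bases long in mmu-miR-466j and mmu-miR-467h and 12 bases long in mmu-miR-466q and mmu-miR-467f. They lay at chr13:17747552-17747573 (mmu-miR-466i-3p, plus strand), chr10:60960802-60960824 (mmu-miR-466j, plus), chr3:85467396-85467418 (mmu-miR-466k, plus), chr3:28419988-28420007 (mmu-miR-466q, plus), chr11:69635419-69635439 (mmu-miR-467f, minus), chr5:34732872-34732892 (mmu-miR-467g, minus), chr9:115381898-115381919 (mmu-miR-467h, plus) and chr3:115979905-115979924 (mmu-miR-669n, plus). The ninth was mmu-miR-466i-5p.

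Some members shared their counts. Within 9 sets of members the counts were identical or differed by less than 5%, so that 67 members remained when each set was counted once. The largest set held mmu-miR-466a-3p, mmu-miR-466b-3p, mmu-miR-466c-3p, mmu-miR-466e-3p and mmu-miR-466p-3p, and another held mmu-miR-669a-3p and mmu-miR-669o-3p. Members of one set are uncertain as separate molecules. Of the members' values, 3.62% were not whole numbers, compared with 0.79% over all miRNAs.

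Levels are given as miRNA counts per 1000000 miRNA counts of the library (CPM), and the summed level is the sum over the 80 members. In units of 1000000 miRNA counts, the libraries held 0.181 to 30.5 (median 3.88). Before any comparison, each library was set against the tissue medians over 662 miRNAs with the members left out. In 160 of 686 libraries (23.3%) the profile was closest to another tissue than the labelled one, and 117 of these sat in 11 of 44 sequencing pools. This concerned 24 of 28 LAR and 18 of 29 TERM libraries of mesenteric adipose tissue (MAT), and no brain library. Results are therefore given for all libraries and for those with the profile of their labelled tissue, called own-profile libraries.

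The members were highest in the 2 lymphoid organs, spleen and thymus. In LAR the summed level was 6675 ± 2532 CPM in spleen (SD, n = 21; lowest 339, median 6857, highest 10095) and 6139 ± 2459 CPM in thymus (n = 30; 509, 6222 and 11100). MAT followed with 1426 ± 1342 CPM (n = 28). The other 10 tissues lay between 498 ± 450.5 CPM in heart (n = 22) and 1103 ± 948 CPM in subcutaneous adipose tissue (SCAT, n = 29), and neighbours in that order differed by less than their SD. Spleen stood 6.58 times above the median tissue.

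In TERM the order was thymus at 7369 ± 4096 CPM (n = 28; 224, 8089 and 17267), spleen at 5619 ± 2741 CPM (n = 26; 319, 6326 and 10507) and MAT at 4421 ± 3301 CPM (n = 29; 319, 4995 and 11114). The remaining tissues lay between 522 ± 474 CPM in pancreas (n = 11) and 1483 ± 1893 CPM in brown adipose tissue (BAT, n = 30). Thymus stood 5.85 times above the median tissue, or 9.59 times in own-profile libraries. The members thus made up 0.6675% of miRNA counts in LAR spleen and 0.737% in TERM thymus. Counting each set of shared counts once, the summed level was 4045 ± 1459 CPM in LAR spleen, 3626 ± 1441 CPM in LAR thymus and 364 ± 197 CPM in LAR diaphragm. The order below these 2 organs depended on the scale. Per 1000000 counts of the 7 RNA classes counted (rpmm), the LAR summed level was 546 ± 255 in thymus and 481 ± 210.5 in spleen, and MAT at 56.25 ± 43.5 lay below lung (149 ± 64.65), kidney, brain, BAT, liver and heart. In TERM it was 474 ± 309 rpmm in thymus, 451 ± 234 rpmm in spleen, 104 ± 77.8 rpmm in lung and 98.8 ± 83.3 rpmm in MAT. Thymus and spleen differed by less than their SD on both scales. In such bulk tissue, a change in the share of a cell type and a change in RNA per cell cannot be told apart.

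Libraries with low values in the lymphoid organs were mostly those with another profile. The 14 libraries labelled spleen or thymus whose profile was closest to another tissue than these had a summed level of 224 to 2896 CPM (median 543). The 27 libraries labelled as another tissue with a spleen or thymus profile had 2529 to 11114 CPM (median 7100). The members were not used to place these libraries, so their level followed the profile rather than the label.

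In own-profile libraries the separation was wider. Summed levels were 7325 ± 1558 CPM in LAR spleen (n = 19; 4409, 6981 and 10095) and 6688 ± 1946 CPM in LAR thymus (n = 25; 3430, 6254 and 11100). Of 216 LAR libraries of the other tissues without MAT, 2 exceeded the lowest thymus library, the highest of them at 4006 CPM. In TERM the levels were 8515 ± 3178 CPM in thymus (n = 24; 773, 9123 and 17267) and 6837 ± 1129 CPM in spleen (n = 21; 5327, 6445 and 10507), and with MAT set aside 1 of these 45 libraries, a thymus library at 773 CPM, lay below the highest library of the other tissues (2961 CPM). With MAT included the highest was 7283 CPM, and 25 of the 45 lay below it.

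The same held within single mice. In own-profile LAR libraries, spleen was above the other tissue of its mouse in 94 of 94 pairs and thymus in 170 of 170, MAT set aside. In TERM the counts were 137 of 137 for spleen and 151 of 153 for thymus. With all libraries they were 115 of 123 and 239 of 256 in LAR and 181 of 209 and 191 of 225 in TERM. Against the MAT of its mouse in all TERM libraries, spleen was above in 16 of 26 pairs and thymus in 16 of 27, with median ratios of 1.25 and 1.08. In own-profile TERM libraries these were 8 of 10 and 6 of 9 pairs, and in all LAR libraries 11 of 12 and 25 of 28.

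**Figure D1:**
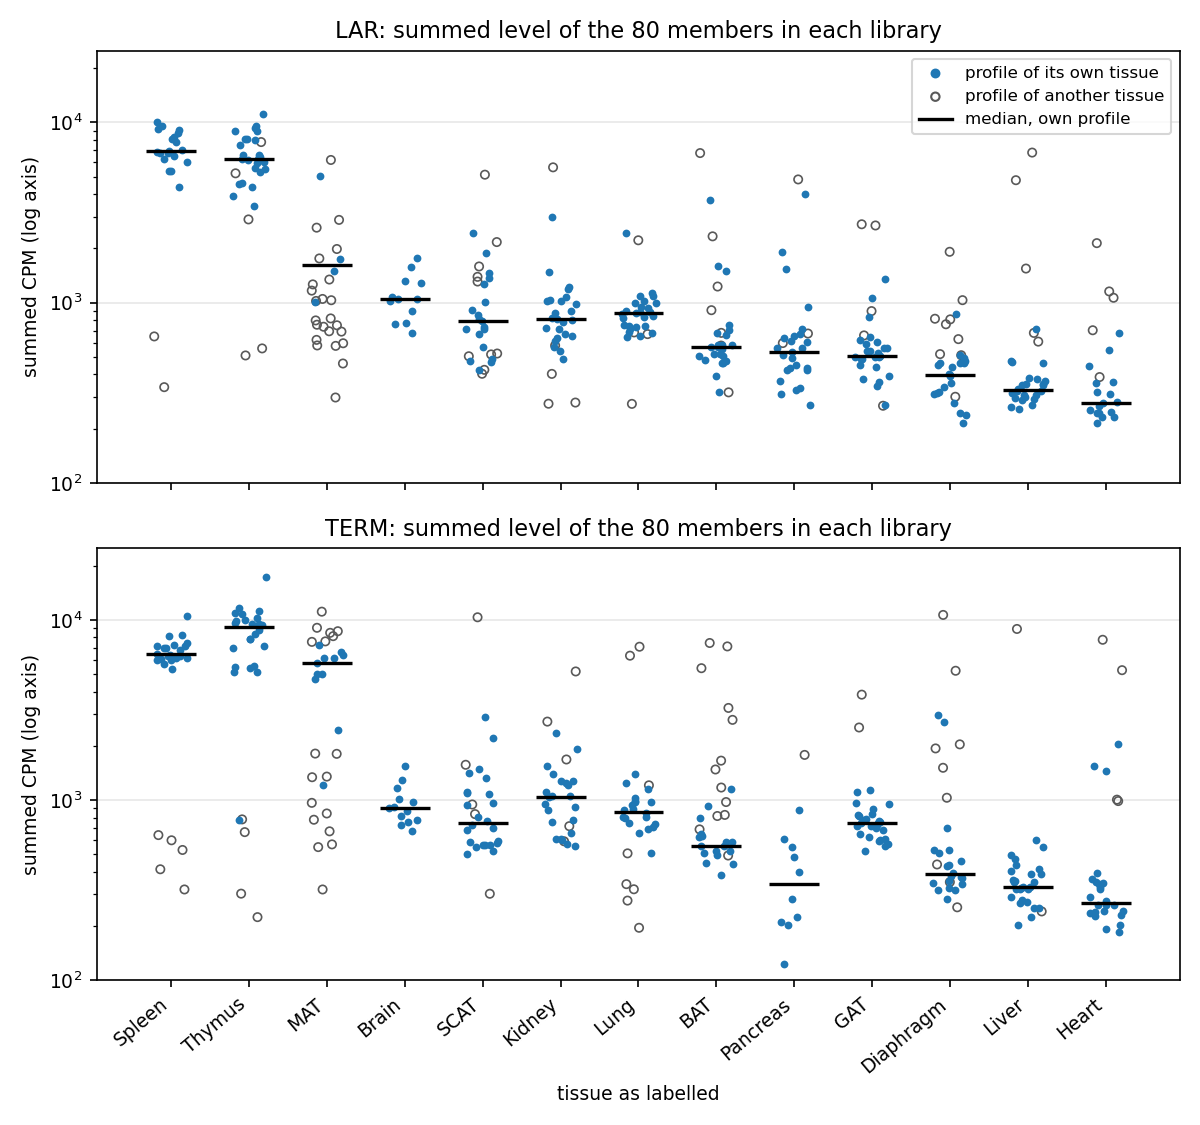
Summed level of the 80 members (CPM, log axis) in every library by labelled tissue, for LAR and TERM; open points are libraries whose profile was closest to another tissue, and the line is the own-profile median. Spleen and thymus stood above the other tissues in both series (own-profile medians 6981 and 6254 CPM in LAR, 6445 and 9123 CPM in TERM), with MAT at 5774 CPM in TERM.

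For each miRNA, a tissue was compared with the mean of the other 12 in one edgeR quasi-likelihood fit with the mouse as a block, with Benjamini-Hochberg adjustment over all miRNAs tested. Of the 80 members, 77 passed the filter on low counts. The remaining 3 (mmu-miR-466l-5p, mmu-miR-669g and mmu-miR-669j) were too rare to test. In LAR, 77 of 77 members were higher in thymus, where 26.8% of all miRNAs tested were higher, and the median difference of the members was 2.68 on the log2 scale (-0.04 over all miRNAs). In spleen, 74 of 77 were higher (24.9% of all miRNAs), with a median of 2.68 (-0.20 over all miRNAs). In TERM, 76 of 77 members were higher in thymus (27.0% of all miRNAs, median 2.92) and 73 of 77 in spleen (28.5%, median 2.26). MAT followed in TERM, with 64 of 77 members higher (18.4% of all miRNAs, median 1.26), or 69 of 77 in own-profile libraries (19.2%, median 1.74). In LAR, 0 of 77 were higher in MAT (13.2%), or 13 of 77 in own-profile libraries (9.99%).

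A member that passes a filter through 1 tissue has to differ, so the counts were repeated for members that passed in each of the 13 tissues. Of 56 such members in LAR, 56 were higher in thymus and 55 in spleen. Of 51 in TERM, 51 were higher in both organs. In own-profile libraries, 76 of 77 members were higher in thymus and 74 of 77 in spleen, in LAR (24.2% and 26.2% of all miRNAs) and in TERM alike (28.8% and 30.4%).

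A few members carried most of the signal. Counting shared sets once, the 5 highest members made up 49.9% of the summed level, the 10 highest 74.9% and the 20 highest 91.9%. In LAR, 28 members reached 10 CPM or more as a mean over tissues, 56 reached 1 CPM and 24 stayed under 1 CPM. These levels rank members by their counts, and how well counts of different members compare as amounts of molecules was not tested.

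The highest member was mmu-miR-669a-3p, which shares its counts with mmu-miR-669o-3p. It had 720 CPM in LAR spleen and 530 CPM in thymus against 89.3 CPM in the median tissue, and 37.0 CPM in diaphragm, where it was lowest. In own-profile libraries it had 792 CPM in spleen, 578 CPM in thymus and 25.05 CPM in diaphragm. Its difference from the other tissues was 2.75 ± 0.23 (log2, SE, adjusted p = 4.03e-25) in spleen and 2.75 ± 0.17 (adjusted p = 1.03e-42) in thymus by the edgeR test.

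Next came mmu-miR-467a-5p, with 433 CPM in thymus, 392 CPM in spleen and 67.5 CPM in the median tissue. mmu-miR-467e-5p had 424 CPM in spleen, 286 CPM in thymus and 49.8 CPM in the median tissue. The 2 organs were thus in opposite order for these members. mmu-miR-467c-5p had 367.5 CPM in thymus, 311 CPM in spleen and 46.6 CPM in the median tissue, and mmu-miR-669c-5p had 251 CPM in spleen, 221 CPM in thymus and 47.2 CPM in the median tissue.

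By the smallest adjusted p, mmu-miR-466b-3p led in thymus with 3.28 ± 0.17 on the log2 scale (adjusted p = 8.86e-53, edgeR). It had 283 CPM in thymus, 236 CPM in spleen and 32.9 CPM in the median tissue. mmu-miR-467e-5p led in spleen with 2.86 ± 0.21 (adjusted p = 1.26e-30, edgeR), ahead of mmu-miR-466d-3p with 2.98 ± 0.23 (139 CPM in spleen, 109 CPM in thymus, 16.7 CPM in the median tissue). The miR-297 family was lower but followed the same order, as mmu-miR-297a-3p had 62.05 CPM in spleen, 45.0 CPM in thymus and 7.19 CPM in the median tissue.

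**Figure D2:**
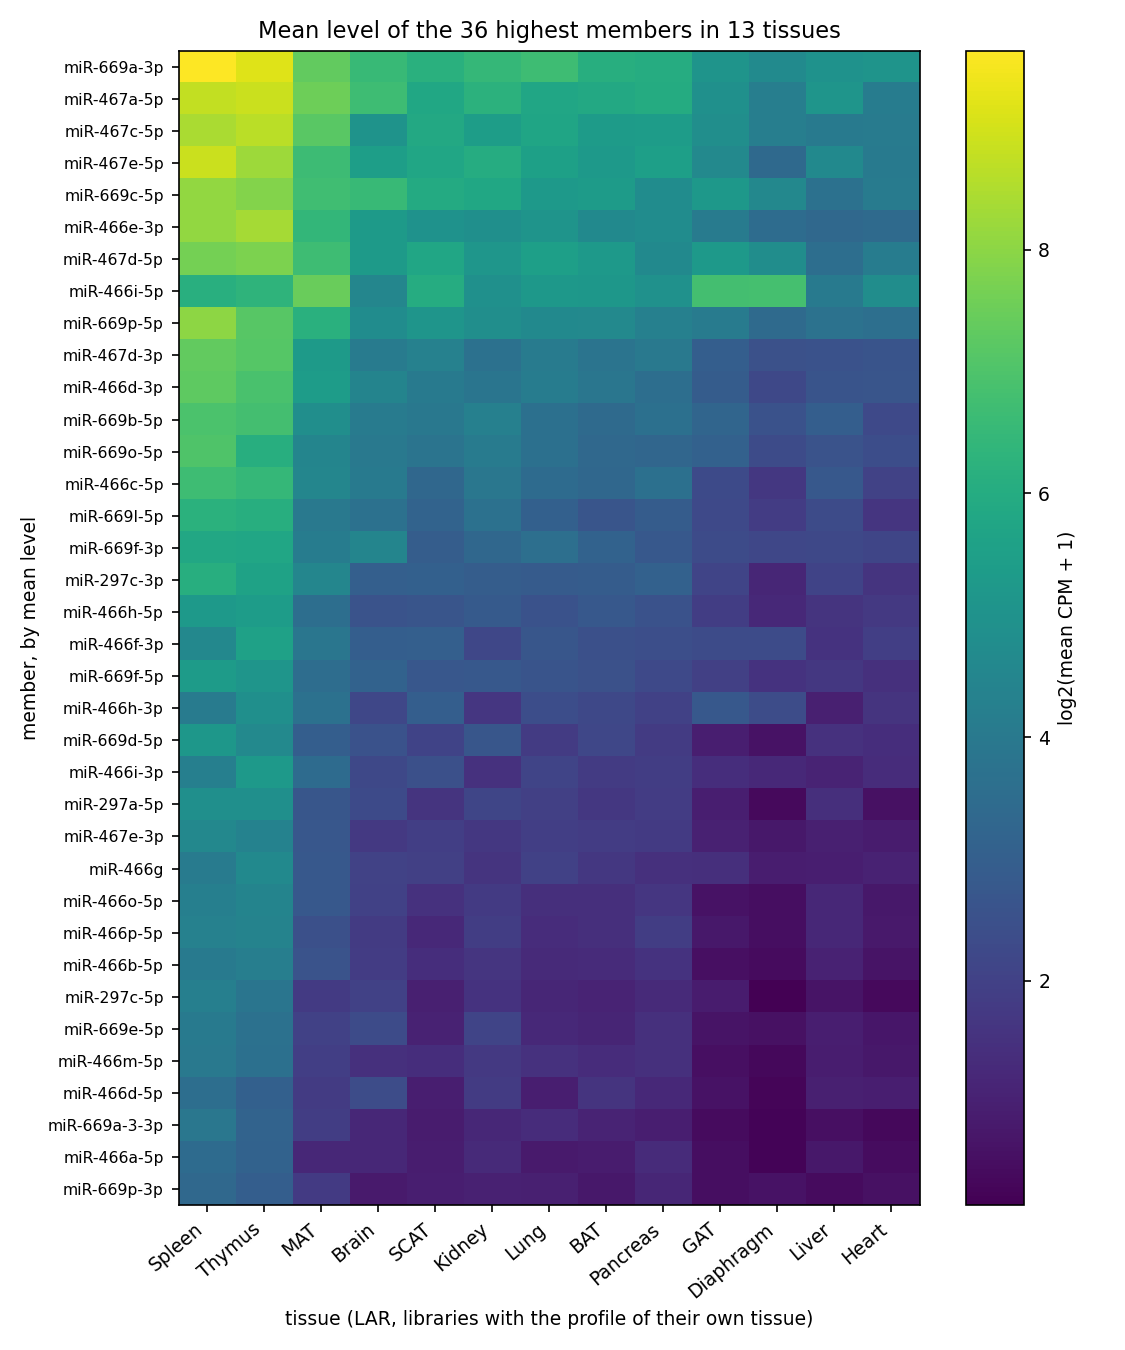
Mean level of the 36 highest members (log2 of CPM + 1, shared sets counted once) in own-profile LAR libraries of 13 tissues. Spleen and thymus were the 2 highest tissues for nearly every member shown; mmu-miR-466i-5p is the exception, highest outside them.

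Most members had the same 2 leading tissues. Among 56 members at 1 CPM or more in LAR, spleen and thymus were the 2 highest tissues for 55 (33 highest in spleen, 22 in thymus), and mmu-miR-466i-5p was the exception. In TERM, where MAT was high, this held for 48 of 58. Over the 13 LAR tissue means, Pearson's r between a member and the summed level had a median of 0.978 and exceeded 0.9 for 54 of 56 members. The lowest values were 0.289 for mmu-miR-466i-5p and 0.873 for mmu-miR-466h-3p. These are descriptions over 13 points that share libraries, and the sum holds the member itself.

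Split by family, spleen or thymus was the highest tissue in each case. In own-profile LAR libraries, with shared sets counted once, the miR-297 family stood 11.0 times above the median tissue in spleen (4 members), the miR-466 family 6.53 times in thymus (25 members), the miR-467 family 7.585 times (11 members) and the miR-669 family 8.34 times in spleen (27 members). The 28 entries of 5p arms held 61.8% to 78.4% of the summed level, depending on the tissue, and the 27 entries of 3p arms 20.7% to 37.0%.

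The 9 members whose hairpins lie outside Sfmbt2 did not share 1 pattern. Without mmu-miR-466i-5p, the other 8 summed to 52.1 CPM in own-profile LAR thymus, 9.65 times the median tissue, and stood 6.36 times above it in spleen. mmu-miR-466i-3p, from the Cdk13 intron, had 36.9 CPM in thymus, 18.1 CPM in spleen and 2.64 CPM in the median tissue. In the same libraries the 68 members whose hairpins, matched by name, all lay in Sfmbt2 stood 7.46 times above the median tissue in thymus and 8.25 times in spleen. Mir297-1, which lies elsewhere, matched no member by name. The difference between these 2 groups was not tested.

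mmu-miR-466i-5p differed from its own 3p arm. In own-profile LAR libraries it had 112 ± 84.5 CPM in diaphragm (n = 21, 12.1 to 378) and 109 ± 111 CPM in gonadal adipose tissue (GAT, n = 25; 22.0 to 603). It had 78.3 ± 49.7 CPM in thymus (n = 25) and 70.15 ± 27.7 CPM in spleen (n = 19), 21.6 ± 10.1 CPM in brain (n = 12) and 15.4 ± 4.85 CPM in liver (n = 24). Diaphragm and GAT thus had higher means than thymus and spleen in LAR. MAT had 176 ± 208 CPM in 4 libraries.

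Over all LAR libraries, mmu-miR-466i-5p was higher in diaphragm than in the other tissues by 1.46 ± 0.17 (log2, adjusted p = 8.99e-15, edgeR, 22.5% of all miRNAs were higher there), and by 0.60 ± 0.18 in GAT (adjusted p = 0.00242). In thymus it was higher by 0.77 ± 0.18 (adjusted p = 9.12e-05), or 0.46 ± 0.16 in own-profile libraries (adjusted p = 0.00803). In spleen the difference was 0.35 ± 0.24 (adjusted p = 0.232). In TERM the order was another. There mmu-miR-466i-5p had 200.5 ± 188 CPM in own-profile spleen (n = 21), 178 ± 181 CPM in MAT (n = 11), 157 ± 220 CPM in diaphragm (n = 20), 88.6 ± 60.4 CPM in thymus (n = 24) and 80.1 ± 28.65 CPM in GAT (n = 28). Over all TERM libraries it was higher in spleen by 1.32 ± 0.24 (adjusted p = 1.05e-06, edgeR). These spleen values pool unlike arms, with own-profile means of 417 CPM in FL (n = 7), 85.6 CPM in HGC (n = 8) and 101 CPM in VGC (n = 6). A second diaphragm member was mmu-miR-466q, from a Tnik intron, with 1.49 ± 0.27 (adjusted p = 6.68e-07) at a level of 0.810 ± 0.716 CPM in own-profile libraries. It was low in GAT, by -3.85 ± 0.57 (adjusted p = 1.60e-09).

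Most members were low in these tissues. In LAR, 62 of 77 were lower than the mean of the other tissues in GAT (24.2% of all miRNAs) and 61 of 77 in diaphragm (21.5%), followed by 39 in heart (12.3%), 34 in pancreas (25.6%) and 29 in SCAT (20.3%). In TERM the counts were 51 in GAT (19.7%), 42 in pancreas (24.3%) and 34 in liver (28.0%), but 15 in SCAT (13.1%), 13 in diaphragm (11.9%) and 14 in heart (13.3%). In own-profile TERM libraries they were 46 in diaphragm (22.0%), 52 in heart (17.7%) and 48 in liver (25.1%).

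In brain, 10 of 77 members were higher and 2 were lower in LAR, against 38.6% of all miRNAs that were higher there and 24.8% that were lower. The largest differences were those of mmu-miR-466q (1.90 ± 0.37 on the log2 scale, adjusted p = 1.34e-06, edgeR) and mmu-miR-669h-5p (1.89 ± 0.36, adjusted p = 5.63e-07). mmu-miR-669h-5p had 2.00 ± 0.651 CPM in brain (n = 12), 3.06 ± 1.19 CPM in spleen (n = 19) and 0.136 ± 0.305 CPM in diaphragm (n = 21) in own-profile libraries. mmu-miR-669f-3p (1.20 ± 0.28) had 21.4 ± 8.89 CPM in brain, its highest level outside spleen and thymus. In TERM no brain library came from a mouse with a spleen or thymus library. With the mouse as a block, brain and mouse therefore cannot be told apart there, and no conclusion is drawn for TERM brain. In that fit 1 of 77 members was higher in brain (22.4% of all miRNAs) and 0 lower (3.04%) by the edgeR test, with 1 at an unadjusted p under 0.05. Without the mouse block 4 were higher, a count given without a share of all miRNAs. Brain also enters the mean of the other 12 for every other TERM tissue.

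Spleen and thymus were also compared directly. In LAR, 1 member was higher in spleen (8.94% of all miRNAs) and 5 were lower (12.6%). The first was mmu-miR-669i at 2.16 ± 0.47 (log2), with 2.33 ± 1.32 CPM in spleen (0.373 to 5.36) and 0.404 ± 0.353 CPM in thymus (0 to 1.22) in own-profile libraries. Of the 5, mmu-miR-466f-3p differed by -1.26 ± 0.33, with 22.9 ± 11.2 CPM in spleen (7.96 to 50.85) and 46.5 ± 19.5 CPM in thymus (23.7 to 99.2), and the ranges of both members overlapped. In TERM, 18 of 77 were lower in spleen (18.0% of all miRNAs) and none was higher (12.3%). In own-profile libraries 8 were higher and 6 lower in LAR (17.7% and 18.9% of all miRNAs), and 2 higher and 35 lower in TERM (16.7% and 24.4%).

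Over all libraries, MAT was the tissue with the most members called between LAR and TERM. The summed level was 1426 ± 1342 CPM in LAR and 4421 ± 3301 CPM in TERM, and 64 of 69 members were lower in LAR (21.5% of all miRNAs), with a median difference of -1.37 on the log2 scale. On the rpmm scale the summed level was 56.25 ± 43.5 in LAR and 98.8 ± 83.3 in TERM. mmu-miR-466g had 3.35 ± 4.24 CPM in LAR (n = 28, 0 to 18.6) and 15.75 ± 12.65 CPM in TERM (n = 29, 0 to 40.3), a difference of -2.15 ± 0.37. mmu-miR-467d-5p had 49.0 ± 68.8 CPM in LAR (5.35 to 329.5) and 225 ± 195 CPM in TERM (13.85 to 719), a difference of -1.98 ± 0.37. Both ranges overlapped.

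The MAT libraries also differed in what else they held. The 4 spleen marker miRNAs (mmu-miR-150-5p, mmu-miR-142a-3p, mmu-miR-223-3p and mmu-miR-451a) summed to 37553 ± 25078 CPM in LAR (13326 to 128330) and 88554 ± 50576 CPM in TERM (17975 to 208122). The 3 pancreas marker miRNAs (mmu-miR-216a-5p, mmu-miR-217-5p and mmu-miR-375-3p) went the other way, at 41665 ± 36909 CPM in LAR (123 to 133555) and 2300 ± 5548 CPM in TERM (58.9 to 28740). By profile, 19 LAR and 2 TERM libraries labelled MAT were closest to pancreas (LAR summed member levels 297 to 2878 CPM), and 1 LAR and 7 TERM libraries were closest to spleen (TERM 7554 to 11114 CPM). In the 4 LAR and 11 TERM own-profile MAT libraries, the median difference of 66 members was -1.49. In LAR MAT, 8 of 9 FL, 8 of 10 HGC and 8 of 9 VGC libraries had another profile, so no calls are given for this subset. Without the 11 pools 68 of 69 were lower in LAR (24.8% of all miRNAs). The part of these tissue markers in the difference was not tested.

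**Figure D3:**
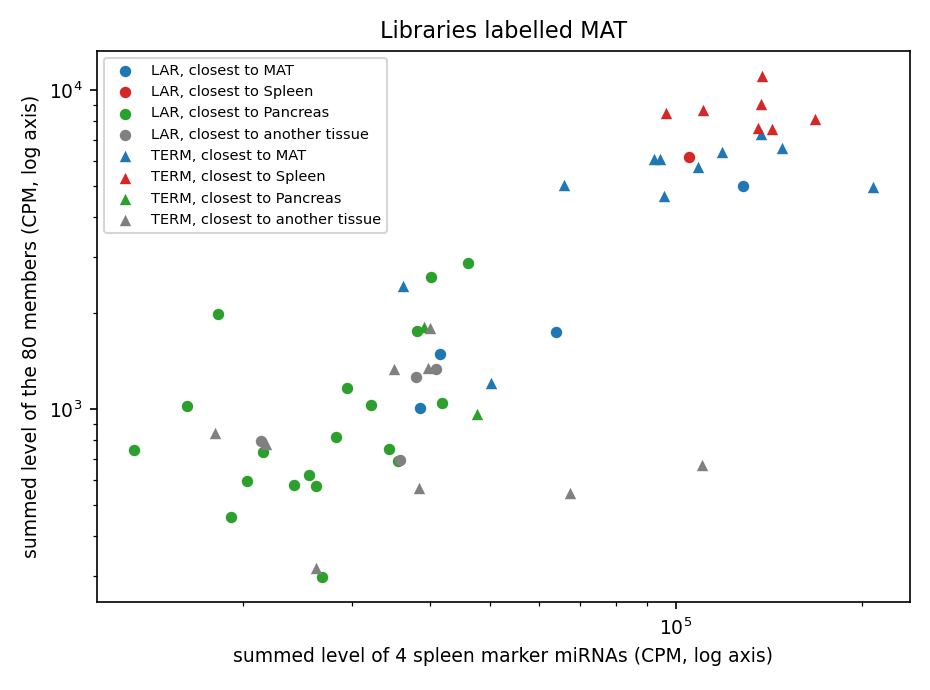
Summed member level against the summed level of 4 spleen marker miRNAs in every library labelled MAT (both in CPM, log axes), for LAR (circles) and TERM (triangles), coloured by the tissue with the closest profile. TERM libraries lay further up on both axes (means 4421 and 88554 CPM) than LAR libraries (1426 and 37553 CPM).

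Thymus held the most calls between the series in own-profile libraries. There 46 of 77 members were lower in LAR (19.1% of all miRNAs) and 0 were higher (19.7%), with a median difference of -0.58. The count was 3 of 77 over all libraries (5.81% of all miRNAs) and 23 of 76 without the 11 pools (14.5%). In the same own-profile thymus libraries the 3 thymus markers summed to 212021 ± 81906 CPM in LAR and 271594 ± 78466 CPM in TERM, and the 4 spleen markers to 68758 ± 23956 CPM in LAR and 42456 ± 15786 CPM in TERM. Their part was not tested.

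The ages were compared in the thymus. In own-profile LAR libraries the summed level was 8028 ± 1732 CPM at 3 months (n = 11; 5495, 8060 and 11100) and 5634 ± 1403 CPM at 8 months (n = 14; 3430, 5778 and 8102). In TERM it was 9969 ± 3684 CPM at 3 months (n = 12; 773, 10085 and 17267) and 7060 ± 1711 CPM at 8 months (n = 12; 5129, 7048 and 9521). The ages overlapped in both series.

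By the edgeR test averaged over arms, 32 of 75 members fell in own-profile LAR thymus (9.34% of all miRNAs fell) and 1 rose (6.37%). In TERM, 4 of 77 fell (0.746% of all miRNAs) and 0 rose (1.71%). The 32 members were below 0 in TERM too, and the median differences were -0.67 in LAR and -0.55 in TERM. With all libraries the picture was different, as 0 members fell in LAR (1.21% of all miRNAs) or TERM (0.506%) and 1 rose in LAR (1.51%), with medians of -0.38 and -0.75. Without the 11 pools, 28 fell in LAR (8.43% of all miRNAs) and 9 fell in TERM (1.86%).

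The member with the smallest adjusted p was mmu-miR-669l-5p at -1.004 ± 0.22 (log2, adjusted p = 0.00814, own-profile LAR, edgeR). It had 90.7 ± 33.1 CPM at 3 months (23.6, 91.3 and 133) and 48.3 ± 16.5 CPM at 8 months (24.2, 50.7 and 84.7). In own-profile TERM libraries it had 124 ± 38.1 CPM and 75.5 ± 21.1 CPM. mmu-miR-466k, from outside Sfmbt2, had 9.16 ± 3.49 CPM and 4.79 ± 2.315 CPM in LAR (-0.98 ± 0.22), and 16.05 ± 6.28 CPM and 9.36 ± 4.88 CPM in TERM. Medians were lower at 8 months for both members in both series, and the ranges overlapped.

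mmu-miR-466i-5p went the other way. In all LAR thymus libraries it had 50.2 ± 19.4 CPM at 3 months (n = 15; 15.5, 52.5 and 87.7) and 118.5 ± 94.6 CPM at 8 months (n = 15; 35.8, 91.0 and 394), a rise of 1.25 ± 0.32 on the log2 scale (adjusted p = 0.0323, edgeR). The difference was 0.84 ± 0.27 in own-profile libraries (adjusted p = 0.0344), and 0.74 ± 0.28 without the 11 pools, where it did not pass (adjusted p = 0.0737). In TERM thymus it had 61.8 ± 34.1 CPM at 3 months and 99.9 ± 71.3 CPM at 8 months and was not called over all libraries (adjusted p = 0.223) or in own-profile libraries (adjusted p = 0.174), while it passed without the 11 pools (0.87 ± 0.27, adjusted p = 0.0462). Tissue markers moved as well in own-profile LAR libraries. The 3 thymus markers were lower at 8 months, mmu-miR-181a-5p by -0.76 ± 0.18 (adjusted p = 0.0112), mmu-miR-20b-5p by -0.84 ± 0.23 (adjusted p = 0.0170) and mmu-miR-106a-5p by -0.67 ± 0.19 (adjusted p = 0.0187). The 4 spleen markers did not move together. mmu-miR-150-5p (0.88 ± 0.19, adjusted p = 0.00817) and mmu-miR-451a (0.58 ± 0.19, adjusted p = 0.0416) were higher, mmu-miR-142a-3p was lower (-0.72 ± 0.20, adjusted p = 0.0170), and mmu-miR-223-3p differed by -0.39 ± 0.19 (adjusted p = 0.154). In TERM none of these 7 passed the test. Their part in the members' difference was not tested.

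**Figure D4:**
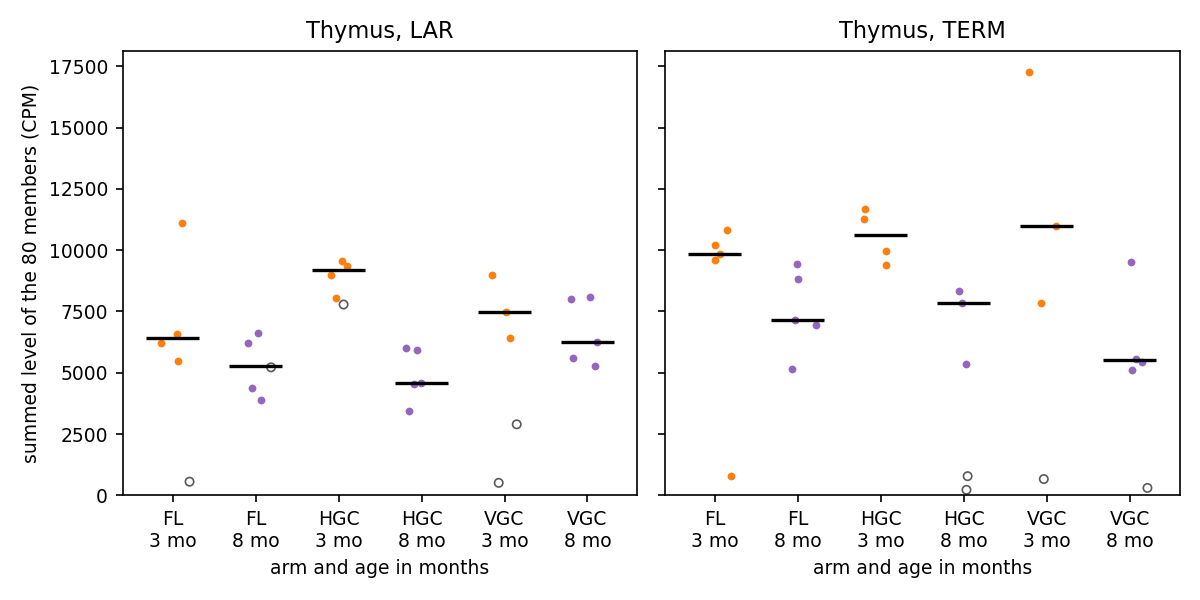
Summed member level (CPM) in thymus libraries by arm and age, LAR and TERM, with 3 months in orange and 8 months in purple; open points have the profile of another tissue and lines are own-profile medians. Over the arms the own-profile medians were 8060 and 5778 CPM in LAR and 10085 and 7048 CPM in TERM, and the ages overlapped.

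In MAT the ages went in the opposite direction in TERM. With all libraries, 5 of 69 members were higher at 8 months (3.11% of all miRNAs), led by mmu-miR-669c-3p with 0.702 ± 0.941 CPM at 3 months (n = 15, 0 to 3.01) and 3.73 ± 2.57 CPM at 8 months (n = 14, 0 to 7.995), a difference of 2.18 ± 0.56 (log2, adjusted p = 0.0108, edgeR). Without the 11 pools 1 of 69 was higher (2.91% of all miRNAs), with a median difference of 0.28. In own-profile libraries 22 of 66 were higher (7.64% of all miRNAs). In the own-profile libraries mmu-miR-466i-3p had 16.4 ± 9.85 CPM in 6 libraries at 3 months (1.07 to 29.4) and 43.2 ± 10.9 CPM in 5 libraries at 8 months (29.1 to 55.15), a difference of 2.32. The 4 spleen markers summed to 62557 ± 38495 CPM at 3 months and 116406 ± 47940 CPM at 8 months over all TERM MAT libraries, and their part was not tested.

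Flight was compared within each tissue and series by the edgeR quasi-likelihood test, with Benjamini-Hochberg adjustment over all miRNAs of the tissue. Over the 13 tissues, FL vs HGC gave 4 calls in 859 member and tissue pairs in LAR (1.54% of all miRNA and tissue pairs) and 0 in 878 in TERM (0.307%), where 117 had an unadjusted p under 0.05. FL vs VGC gave 0 in LAR (60 at an unadjusted p under 0.05, 0.736% of all called) and 16 in TERM (0.712%). HGC vs VGC gave 0 in LAR (69 at an unadjusted p under 0.05, 0.176% of all called) and 11 in TERM (0.251%). By DESeq2 the counts were 16, 30, 0, 1, 1 and 18 in the order LAR and TERM for FL vs HGC, FL vs VGC and HGC vs VGC, where 1.56, 0.672, 1.11, 0.453, 0.472 and 0.453% of all pairs were called. By the Wilcoxon test they were 6, 0, 0, 0, 0 and 0, with 1.72, 0, 0.144, 0, 0 and 0% of all pairs. All these percentages are shares called after adjustment, so they give no background for the numbers at an unadjusted p.

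The 4 LAR calls were in SCAT, where FL was higher than HGC (2.14% of all miRNAs were higher). mmu-miR-467e-5p had 90.0 ± 44.3 CPM in FL (n = 9; 45.4, 76.4 and 175), 31.6 ± 18.3 CPM in HGC (n = 10; 8.23, 31.7 and 56.2) and 46.15 ± 48.1 CPM in VGC (n = 10; 14.2, 25.9 and 169.6). FL and HGC overlapped between 45.4 and 56.2 CPM, and the difference was 1.34 ± 0.37 (log2, adjusted p = 0.0349). mmu-miR-467h differed by 3.51 ± 0.77 (adjusted p = 0.0115) at 0.816 ± 0.701 CPM in FL and 0.0255 ± 0.0805 CPM in HGC. None of the 4 was called in own-profile libraries or without the 11 pools, where the difference was 1.29 ± 0.37 and 1.11 ± 0.32 for mmu-miR-467e-5p and 3.43 ± 0.99 and 3.59 ± 0.90 for mmu-miR-467h.

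The TERM calls were in liver, where VGC was higher than FL for 16 of 67 members (4.94% of all miRNAs were lower in FL) and than HGC for 11 (3.22%). mmu-miR-466e-3p had 8.33 ± 5.06 CPM in FL (n = 10, 2.69 to 21.0), 8.71 ± 2.66 CPM in HGC (n = 10, 5.82 to 14.2) and 59.8 ± 142.5 CPM in VGC (n = 9; 4.89, 12.4 and 439). The VGC libraries included 1 with a thymus profile, whose summed level was 8910 CPM. Own-profile libraries leave out this library and 1 HGC library with a heart profile (241 CPM), and there the summed level was 331 ± 114 CPM in FL, 351 ± 83.9 CPM in HGC and 386 ± 87.4 CPM in VGC, and 0 members were called.

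One member stood apart in the TERM spleen. In own-profile libraries mmu-miR-466i-5p had 417 ± 174 CPM in FL (n = 7; 260, 363 and 749.6), 85.6 ± 39.1 CPM in HGC (n = 8; 43.7, 73.8 and 144) and 101 ± 62.0 CPM in VGC (n = 6; 47.45, 88.1 and 222). Every FL library lay above every HGC and VGC library. The 7 FL libraries came from 7 pools and 6 plates. The difference was 2.34 ± 0.35 on the log2 scale from HGC (5.05-fold, adjusted p = 0.000751) and 2.025 ± 0.39 from VGC (adjusted p = 0.0220), by the edgeR test over 868 miRNAs, of which 0.115% and 0.230% were called. In both comparisons this member ranked first. The place of dissection went with the arm, so it and flight cannot be told apart here.

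With all TERM spleen libraries the groups overlapped. mmu-miR-466i-5p then had 329 ± 230.2 CPM in FL (n = 9; 20.4, 302 and 749.6), 79.3 ± 41.15 CPM in HGC (n = 9) and 82.15 ± 63.2 CPM in VGC (n = 8). The differences were 2.08 ± 0.51 (adjusted p = 0.173) and 1.94 ± 0.53 (adjusted p = 0.127), which did not pass. DESeq2 on the same libraries gave adjusted p = 0.00573 and 0.0157, and edgeR without the 11 pools 0.00810 and 0.0801. With plate as a term the edgeR differences were 2.01 ± 0.72 (adjusted p = 0.969) and 2.20 ± 0.59 (adjusted p = 0.588), and with the replicate number as a block adjusted p was 0.146 and 0.357.

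The LAR spleen did not show it. There mmu-miR-466i-5p had 53.8 ± 10.7 CPM in FL (n = 6, 36.8 to 65.6), 60.0 ± 27.4 CPM in HGC (n = 6, 22.1 to 92.05) and 77.9 ± 36.6 CPM in VGC (n = 9, 29.3 to 136), and FL lay within the range of both controls. The difference from HGC was -0.32 ± 0.32 (adjusted p = 0.750). The difference between the series was itself tested, as the FL vs HGC effect in LAR minus that in TERM was -2.48 ± 0.66 (log2, adjusted p = 0.0450, edgeR, 1.38% of all miRNAs were lower) over all libraries, -2.41 ± 0.65 without the filter on low counts, where it did not pass (adjusted p = 0.0611), and -2.675 ± 0.47 (adjusted p = 0.00105) in own-profile libraries. In the other 12 TERM tissues mmu-miR-466i-5p was not called in either comparison (lowest adjusted p 0.277 over all libraries and 0.236 in own-profile libraries).

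The entry named as the 3p arm of the same hairpin did not follow. Counts per entry do not show the locus that a read came from. mmu-miR-466i-3p had 15.95 ± 6.08 CPM in FL (n = 7, 7.15 to 26.3) and 19.0 ± 10.7 CPM in HGC (n = 8, 11.4 to 42.6) in own-profile TERM spleen, and the difference was -0.25 ± 0.30 (adjusted p = 0.993). Among miRNAs with UG repeats that are no members, mmu-miR-574-5p had 137 ± 72.7 CPM in FL (74.6 to 290.4) and 110.4 ± 50.15 CPM in HGC (56.6 to 201), which overlapped. mmu-miR-1187 had 7.00 to 10.9 CPM in FL, 0.838 to 6.29 CPM in HGC and 1.76 to 3.94 CPM in VGC, with no overlap, and passed the edgeR test against VGC (adjusted p = 0.0323) but not against HGC (adjusted p = 0.0603). Over all TERM spleen libraries mmu-miR-1187 had 0 to 10.9 CPM in FL, which overlapped both controls, and did not pass against VGC (adjusted p = 0.660), nor without the 11 pools (adjusted p = 0.165) or by DESeq2 (adjusted p = 0.432).

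**Figure D5:**
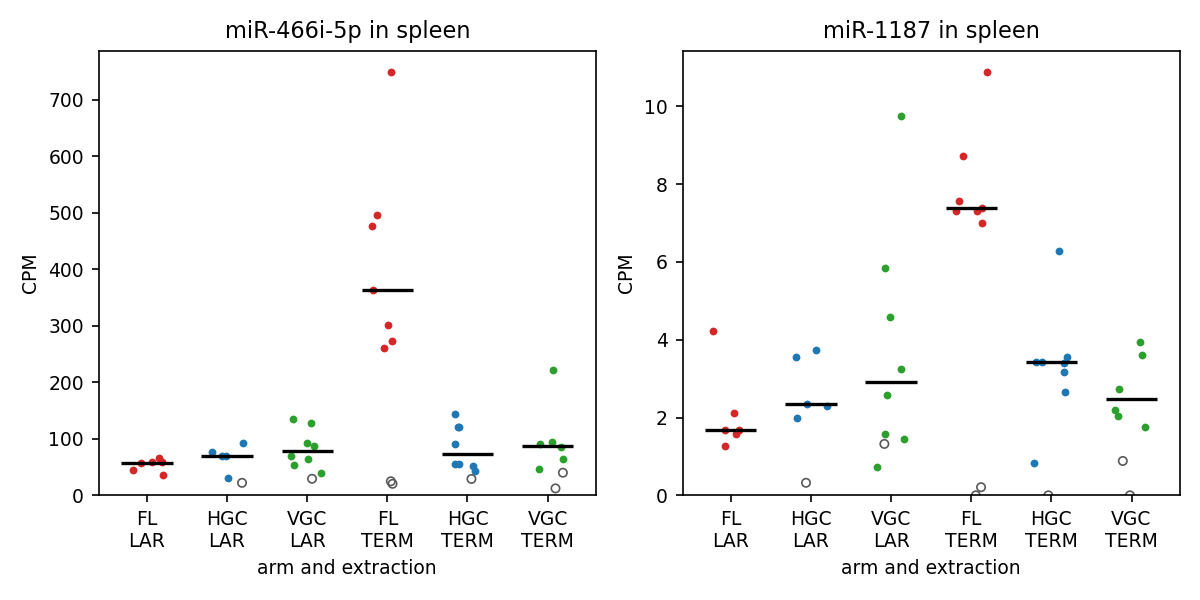
Level (CPM) of mmu-miR-466i-5p and of mmu-miR-1187 in spleen libraries by arm, LAR and TERM (FL red, HGC blue, VGC green); open points have the profile of another tissue and the line is the own-profile median. In TERM the 7 own-profile FL libraries lie at 260 to 749.6 CPM for mmu-miR-466i-5p, above all HGC and VGC libraries (up to 222 CPM); in LAR the arms overlap.

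Other miRNAs were compared with the members by their pattern over tissues. Among 575 non-members with 10 CPM or more in their highest tissue mean, the pattern over 13 LAR tissue means was most like the summed level for mmu-miR-18b-5p (r = 0.897), mmu-miR-106a-5p (0.875), mmu-miR-150-3p (0.871), mmu-miR-342-3p (0.869) and mmu-miR-3964 (0.867). mmu-miR-106a-5p had 895 CPM in thymus, 217 CPM in spleen and 50.6 CPM in the median tissue, while mmu-miR-342-3p had 1626, 5771 and 716 CPM. The values of r describe 13 points that share libraries.

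Other clustered miRNAs were set beside the members. In LAR thymus, 1 of 96 tested miRNAs of the imprinted Dlk1-Dio3 cluster was higher and 58 were lower (median -0.71 on the log2 scale), 5 of 7 of the miR-290 to miR-295 cluster, known from embryonic stem cells, were higher (median 3.00), and 2 of 17 of an X-linked group were higher (median -0.19). In LAR spleen, 0 of 96, 0 of 7 and 0 of 17 were higher and 65, 1 and 11 were lower. Of all miRNAs, 26.8% were higher and 16.5% lower in LAR thymus, and 24.9% higher and 22.4% lower in LAR spleen. The members in the same fit numbered 77 of 77 higher in thymus and 74 of 77 in spleen.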

How the data were processed

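Per the study's methods, the authors sequenced pooled small RNA libraries (44 pools and 8 plates among the samples used here, by the study's sample list) and quantified miRNAs against miRBase with miRMaster. The deposited miRNA table holds estimated counts per mature miRNA and library, in which reads matching several entries can be split, so that some values are not whole. The authors also deposited raw counts for other RNA classes (lncRNA, piRNA, rRNA, snRNA, snoRNA and tRNA), and rpmm here means miRNA counts per 1000000 counts of these 7 classes together. The submitters' processing notes name GRCm39. Hairpin positions and host genes here are from the GENCODE annotation of GRCm38.p6, and mature sequences are from RefSeq GRCm38.p6. No coordinates were carried between builds. Sequences were matched by miRNA name for 8 of 80 members.

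Counts were rounded to whole numbers and tested with edgeR 4.0.16 (quasi-likelihood F test, TMM factors) in R 4.3.3, and CPM were taken from the total of miRNA counts per library (0.181 to 30.5 in units of 1000000 counts, which bounds the precision of rare members). A miRNA was tested in a tissue when it had at least 5 counts in at least 10% of the libraries of 1 arm. P-values were adjusted by Benjamini-Hochberg over all miRNAs tested in the comparison and called at 0.05; SE is the absolute log2 difference divided by the square root of F. Arms were compared within a tissue and series without covariates, ages as the mean over arms, LAR and TERM in one fit per tissue, and tissues in one fit per series with the mouse as a block. Tissues of 1 mouse share that mouse. Own-profile libraries were those whose log2 CPM over 662 miRNAs, members left out and centred on the mean of the tissue medians, correlated best with the median of the labelled tissue. Pools and plates were taken from the study's sample list. Alternatives were leaving out the 11 pools with many other profiles or all libraries with another profile, DESeq2 1.42.0, RLE factors, no filter, a Wilcoxon rank-sum test on rpmm, and plate, age or replicate number as a term. Scripts were tested on simulated data. Other analysis used Python 3.11.15, pandas 2.3.3, scipy 1.17.1 and matplotlib 3.10.9.

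The members and comparison lists were chosen with earlier results of these data known. Members named were the 10 highest in LAR, the 3 with the smallest adjusted p in each of the 3 highest tissues, up to 3 per tissue and 5 per contrast among calls, and the 5 most alike non-members; mmu-miR-1187, mmu-miR-574-5p, the members from hairpins elsewhere, those highest in brain and those called between spleen and thymus were named after their values were seen.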

Additional observations from a re-analysis of the deposited data

Results flagged for a closer look

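Dixon's criterion is met by chance in about 1 in 20 groups of normally distributed values, which CPM need not be. By this criterion, 1 library's summed member level lay far from the nearest other library in 39 of 77 groups of 4 to 10 libraries. It was the highest library in 36 of these groups and the lowest in 3, and 28 of the 39 libraries had the profile of another tissue. Values are CPM, and each library is named by its labelled tissue, group and replicate.

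Highest libraries whose profile was that of spleen or thymus were BAT FL LAR 2 at 6761, BAT VGC TERM 14 at 7129, Diaphragm HGC TERM 16 at 10661, GAT HGC LAR 14 at 2722, GAT HGC TERM 4 at 2529, Heart HGC TERM 12 at 7760, Heart VGC TERM 12 at 5262, Kidney VGC LAR 11 at 5634, Kidney VGC TERM 16 at 5177, Liver HGC LAR 12 at 6805, Liver VGC LAR 12 at 4781, Liver VGC TERM 14 at 8910, MAT FL LAR 5 at 6191, SCAT VGC LAR 12 at 5129 and SCAT VGC TERM 2 at 10345. Highest libraries with the profile of some other tissue were Diaphragm FL TERM 14 at 1511, Diaphragm VGC LAR 16 at 1915, GAT FL TERM 11 at 3849, GAT VGC LAR 1 at 2680, Heart HGC LAR 8 at 702.4, Heart VGC LAR 13 at 2139, Kidney FL TERM 16 at 2727, Liver FL LAR 2 at 1546, Lung VGC LAR 3 at 2218 and Pancreas FL LAR 14 at 4827. The 3 lowest libraries were Lung FL TERM 14 at 195.6, Spleen HGC TERM 13 at 413.1 and Spleen VGC LAR 17 at 649.1, and each of them also had the profile of another tissue. In the profile of their own label, the highest libraries were BAT HGC LAR 16 at 701.9, Brain FL LAR 5 at 1312, Brain VGC TERM 7 at 1553, GAT FL LAR 2 at 1352, Kidney FL LAR 4 at 2977, Liver FL TERM 16 at 604.1, Liver HGC TERM 14 at 549.5, Lung FL LAR 11 at 2438, MAT HGC LAR 16 at 5016, Pancreas VGC LAR 14 at 4006 and SCAT FL TERM 1 at 2910.

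By edgeR's quasi-likelihood test with Benjamini-Hochberg adjustment, the FL minus HGC difference of some members was not the same in the series or at the ages compared. In TERM heart it was lower at 8 than at 3 months for 12 members (3.66% of all miRNAs were lower), with mmu-miR-466f-3p at -3.71 ± 0.78 on the log2 scale (adjusted p = 0.0185), and 0 members were called there without the 11 pools. In own-profile libraries 2 heart members were lower (1.40% of all miRNAs). In own-profile MAT the median difference of 66 members was 3.10, but 8 of 10 FL libraries there had another profile, so no calls are given. Over all libraries and without the 11 pools, 0 of 69 MAT members were called. Between LAR and TERM (LAR minus TERM), mmu-miR-669a-5p differed by 2.84 ± 0.63 in diaphragm (adjusted p = 0.0125) and by 1.53 ± 0.46 in lung (adjusted p = 0.0401). mmu-miR-466i-5p differed by -1.89 ± 0.51 in GAT (adjusted p = 0.0309) and by -2.48 ± 0.66 in spleen (adjusted p = 0.0450). The members called in this comparison were 3 of 70 in diaphragm (0.442% of all miRNAs were higher), 6 of 70 in lung (4.30% higher), 1 of 64 in GAT (1.26% lower) and 1 of 75 in spleen (1.38% lower). Of these 11, 1 was called without the 11 pools, mmu-miR-466i-5p in spleen. The diaphragm HGC libraries in TERM ran from 8.01 to 386 CPM of mmu-miR-669a-5p, and the part of libraries with other profiles in the remaining differences was not tested.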

How the results depend on the processing

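Counts here are member and tissue pairs called by the edgeR quasi-likelihood test unless another test is named. Of 210 alternative values for the counts and ratios that answer a comparison, 166 stayed within 1.5 times (or within the spread of libraries) and 44 moved. The cause was not tested. The numbers of members higher in a tissue than in the others, 169 in LAR (22.7% of all miRNA and tissue pairs were higher) and 217 in TERM (19.9%), of which 64 in MAT, were among those that stayed.

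The share of all miRNA and tissue pairs called in the same setting follows each count. Without the 11 pools, FL vs HGC went from 4 to 0 calls in LAR (0.0873%) and from 0 to 1 in TERM (0.0179%), FL vs VGC from 0 to 1 in LAR (0.262%) and from 16 to 0 in TERM (0.00893%), HGC vs VGC from 11 to 0 in TERM (0.00893%), 8 vs 3 months from 1 to 28 in LAR (1.22%) and from 5 to 11 in TERM (2.10%; 5 in MAT against 10 in thymus and 1 in MAT), the age by flight interaction from 12 to 0 in TERM (0%) and the LAR vs TERM by flight interaction from 11 to 1 (0.268%). In own-profile libraries the counts for FL vs HGC were 0 (0.130%) in LAR and 1 (0.00887%) in TERM. In TERM they were 1 (0.0266%) for FL vs VGC and 0 (0.00887%) for HGC vs VGC. For age they were 33 (1.54%) in LAR and 26 (1.59%) in TERM, and 1 (0.323%) for the LAR vs TERM by flight interaction. For the age by flight interaction in TERM, 2 members were lower in heart (1.40% of all miRNAs there). No MAT calls are given for this interaction, as 8 of 10 FL libraries there had another profile. This also bears on the MAT part of the TERM age count. With RLE factors FL vs HGC gave 12 (1.82%) in LAR and 3 (0.332%) in TERM, and FL vs VGC 29 (0.874%) in TERM. Without the filter FL vs HGC gave 2 (0.740%) in LAR and 1 (0.230%) in TERM, age 12 (1.38%) in TERM and the LAR vs TERM by flight interaction 7 (0.575%). DESeq2 gave 16 (1.56%) and 30 (0.672%) for FL vs HGC in LAR and TERM, 1 (0.453%) for FL vs VGC in TERM, and 1 (0.472%) and 18 (0.453%) for HGC vs VGC in LAR and TERM. The Wilcoxon test on rpmm gave 0 (0%) for FL vs VGC and HGC vs VGC in TERM. With plate as a term the counts were 0 for FL vs VGC (0.00809%), HGC vs VGC (0%) and the age by flight interaction (0.0376%) in TERM and for age in LAR (0.0610%), and 2 (0.338%) for age in TERM. With age as a term, FL vs HGC gave 2 (0.724%) in LAR, and FL vs VGC and HGC vs VGC gave 0 (0%) in TERM.

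Replicate numbers recur between arms but belong to different mice, and do not pair the libraries: same-numbered libraries of 2 arms deviated with a median correlation of 0.0157 in LAR and 0.0484 in TERM, over 0.1 in 122 of 334 and 141 of 319 pairs. With the replicate number as a block, FL vs HGC gave 12 (0.384%) in LAR, and FL vs VGC (0.00809%) and HGC vs VGC (0%) gave 0 in TERM. Without the mouse as a block in the tissue comparison, the totals were 173 in LAR (24.0%) and 234 in TERM (23.7%). Leaving out 1 library at a time was run for groups of 2 to 5 libraries, which were brain and TERM pancreas. No call lay there, so it bears on no call, and the totals stayed at 4 to 4 in LAR and 0 to 0 in TERM for FL vs HGC, at 0 to 0 and 16 to 16 for FL vs VGC, and at 0 to 0 and 11 to 11 for HGC vs VGC. The ratio of thymus to the median tissue in TERM, 5.85, was 9.99 from medians over libraries, 9.51 without the 11 pools and 9.59 in own-profile libraries. Counting shared sets once and comparing spleen with thymus were chosen after seeing the data. Depth limits the rare members, of which 24 averaged under 1 CPM in LAR.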
